A study of Mus musculus with 30 samples.

Results

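Edn1, Hbegf, Vegfa, Lif, Ptgs2, Has2, Plaur, Csf1 and Cxcl1 are genes of the fibroblast serum response whose products are secreted, sit at the cell surface or make molecules that leave the cell. These 9 of the 57186 gene identifiers in the count table were chosen by symbol, with their levels and changes in these same libraries already known. Their CPM over all times and every change computed from it are therefore given as description, and no p-value is printed for a member. Statements that a member passed or missed an adjusted p threshold are description too, because the choice used these same values. CPM is counts per mega-count (M) of a library's total after scaling between libraries. The libraries came from NIH/3T3, a mouse fibroblast line grown in DMEM with 10% fetal bovine serum, and from CGR8, a line of mouse embryonic stem cells kept in N2B27 + 2i/LIF. The ROSA26 SLT knock-in was present in the 2 lines, controls included. Cycloheximide, which blocks translation elongation, was given at 0.1 µg/mL. How far translation was blocked at this dose cannot be read from RNA counts. Each line was sampled in 3 replicates after 0 h, the control, and after 1, 2, 5 and 48 h. No untreated culture was sampled at the later times, so cycloheximide and time in culture cannot be told apart. The labels do not say whether replicates were separate cultures, so p-values measure the spread between these samples, which may be technical. Line and medium changed together and their parts cannot be told apart. In bulk RNA, fewer expressing cells and less RNA per cell cannot be told apart either.

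Serum-response genes are those that resting fibroblasts switch on when growth factors arrive. Many are transcribed within minutes by factors that are already present, and many of their mRNAs carry AU-rich elements in the 3′ UTR that mark them for rapid decay. Blocking translation is long known to raise the mRNA of many such genes, a behaviour called superinduction. The labels name no change of serum in this experiment. Not every member is itself secreted or at the surface: Ptgs2 encodes cyclooxygenase-2, an enzyme of the endoplasmic reticulum and nuclear membranes, and only its prostanoid products leave the cell.

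Totals ranged from 18.2 to 30.5 M counts per library. The fibroblast markers summed to between 4060 and 10200 CPM in NIH/3T3 libraries and to at most 5.07 CPM in CGR8, although Thy1 and Postn were near 0 in NIH/3T3. The embryonic stem cell markers summed to between 4240 and 7190 CPM in CGR8 and to at most 0.545 CPM in NIH/3T3. Of the blood and endothelial markers, Pecam1 made up most of the 78.5 to 99.3 CPM in CGR8. Some libraries stood apart from their replicates over all well-measured genes. The 1 h replicate C of NIH/3T3 had the largest root mean square log2 deviation, 0.454, and was the lowest of its group for 9 of 9 members. The 2 h replicate A of NIH/3T3 deviated by 0.34 and was the lowest of its group for 7 of 9. In CGR8 the largest deviations were 0.404 for 2 h replicate A, 0.379 and 0.362 for 5 h replicates A and C, and 0.333 for 0 h replicate B.

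The 3′ UTRs show a feature that was not read from the counts. It is not independent of the choice of members, because many mRNAs of the serum response carry AU-rich elements. The AU-rich nonamer TTATTTATT, the core of the element bound by tristetraprolin (Zfp36), was present in the 3′ UTR of the longest protein-coding transcript with an annotated stop codon in 4 of 9 members (44.4%) and in 8.25% of the 11374 genes tested in NIH/3T3 that have an annotated 3′ UTR (GENCODE M21, GRCm38). The shorter ATTTA core was in 9 of 9 members and in 70.1% of those genes. Over their pooled 3′ UTRs members held 3.53 ATTTA cores per kb, against 1.83 per kb. The median 3′ UTR of the members was 1865 bases, against 1160, and a longer UTR holds such letters more often. Cxcl1 and Lif held 2 nonamers each, and Ptgs2 and Vegfa 1 each. The first site of each gene is shown because these differ in place. The first nonamer of Ptgs2 began 18 bases after the stop codon and that of Cxcl1 102, whereas those of Vegfa and Lif lay 1674 and 2715 bases away. Each line gives 30 bases around the first nonamer, 5′ to 3′, with the nonamer in capitals.
Ptgs2: ctgaccatatTTATTTATTtatgtgaagaa
Cxcl1: atttatgtatTTATTTATTccacaaagtgt
Vegfa: ttgttatcatTTATTTATTggtgctactgt
Lif: aaaggggcctTTATTTATTatttaaaactt
Cxcl1 had the densest run, 11.8 ATTTA cores per kb of a short 3′ UTR of 592 bases, followed by Ptgs2 with 5.73 per kb and Vegfa with 4.83. Edn1, Hbegf, Has2, Plaur and Csf1 held 2 to 4 ATTTA cores each and no nonamer. A match in letters is a description and shows no binding.

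Promoters were read from 250 bases before to 50 bases after the start site (RefSeq, GRCm38.p6). Entries matched 7 of 9 members, with 8 promoters in all because Vegfa had another start site, and Has2 and Hbegf had none. Both strands were searched for the AP-1 letters TGANTCA, the cyclic AMP response element TGACGTCA, and the NF-kB and serum response element consensus motifs. AP-1 letters were found in Lif and Plaur, 2 of 8 member promoters, and in 7.81% of 32851 promoters. NF-kB letters were found in Csf1, Cxcl1, Lif and Vegfa, 4 of 8, and in 8.46% of all. The other Vegfa promoter had no match to any of the motifs. The cyclic AMP response element and the serum response element were found in 0 of 8, and in 1.79% and 1.63% of all promoters. Only full matches to these letters within the stated bases were searched. Variant sites, half-sites and sites farther away would be missed, so 0 matches does not show that an element is absent. In Cxcl1 a pair of NF-kB matches overlapped at positions -71 and -70 from the start site. The promoters of the gene with the highest count of AU-rich cores per kb, of the receptor gene with an AP-1 match, of the gene with both motifs and of the member that kept to its own time course follow, with matches in capitals.
Cxcl1, chr5:90890995-90891294, plus strand: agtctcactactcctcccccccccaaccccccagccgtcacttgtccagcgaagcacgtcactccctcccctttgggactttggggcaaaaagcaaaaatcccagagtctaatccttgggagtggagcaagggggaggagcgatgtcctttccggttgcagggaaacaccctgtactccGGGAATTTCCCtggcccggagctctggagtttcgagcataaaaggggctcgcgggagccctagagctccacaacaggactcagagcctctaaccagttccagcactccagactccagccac
Plaur, chr7:24462233-24462532, plus strand: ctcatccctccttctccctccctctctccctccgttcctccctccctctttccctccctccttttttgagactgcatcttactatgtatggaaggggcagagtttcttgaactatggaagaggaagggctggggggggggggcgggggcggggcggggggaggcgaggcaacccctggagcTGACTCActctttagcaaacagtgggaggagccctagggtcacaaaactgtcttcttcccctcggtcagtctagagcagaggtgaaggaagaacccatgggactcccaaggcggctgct
Lif, chr11:4257318-4257617, plus strand: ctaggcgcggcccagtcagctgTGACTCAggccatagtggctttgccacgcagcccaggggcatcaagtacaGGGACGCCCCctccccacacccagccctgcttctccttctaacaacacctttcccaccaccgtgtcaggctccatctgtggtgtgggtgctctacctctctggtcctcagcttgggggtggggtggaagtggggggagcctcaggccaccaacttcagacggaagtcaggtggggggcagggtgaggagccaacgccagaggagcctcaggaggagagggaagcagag
Csf1, chr3:107760420-107760719, minus strand: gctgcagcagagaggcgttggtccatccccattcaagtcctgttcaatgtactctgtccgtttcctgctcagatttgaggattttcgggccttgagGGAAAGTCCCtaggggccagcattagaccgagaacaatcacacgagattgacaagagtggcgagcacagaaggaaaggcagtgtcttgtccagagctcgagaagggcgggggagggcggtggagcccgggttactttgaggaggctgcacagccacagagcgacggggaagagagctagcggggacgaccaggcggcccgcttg

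Before treatment the members covered a wide range in fibroblasts. Per kb of the longest transcript, the scale on which levels of different genes can be compared, Ptgs2 stood highest at 0 h in NIH/3T3 with 125 ± 15.5 CPM per kb (SD, n = 3). Csf1 (63.7 ± 4.48) and Plaur (61.2 ± 4.09) followed, and their libraries overlapped, from 58.4 to 66.6 and from 58.2 to 65.7. Hbegf (18.3 ± 0.616) and Vegfa (17.3 ± 0.487) met at 17.8 CPM per kb, and with total exon length in place of the longest transcript their order turned, with 10.9 for Hbegf and 13.9 for Vegfa. Has2 reached 6.96 ± 0.762 CPM per kb, Lif 1.84 ± 0.04, Edn1 1.51 ± 0.127 and Cxcl1 0.861 ± 0.234, and none of these last 4 overlapped with the next on that length. The longest transcript of Cxcl1 had 1871 bases, but its longest protein-coding transcript with a stop codon had 953. For Plaur these lengths were 2009 and 1506, and for Hbegf 2890 and 2375. Levels per kb of coding transcript were not computed and would be higher for these genes, so their places depend on the length used. At 2 h Ptgs2 was still highest, at 362 ± 74.3 CPM per kb, and Edn1, at 12.0 ± 0.823, had passed Lif, at 4.17 ± 0.822.

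Untreated CGR8 cells held less of 8 of the 9 transcripts, by amounts that differed widely. Of the 9 members 8 were called lower in CGR8 than in NIH/3T3 at 0 h. Of all genes tested 79.1% were called in either direction, 7511 higher and 6372 lower in CGR8. A gene is called here when its edgeR quasi-likelihood p-value, adjusted over all genes tested, was under 0.05. The log2 difference in level ran from -10.68 (SE 0.31) for Ptgs2 and -9.98 (SE 0.24) for Csf1 to -1.33 (SE 0.25) for Lif. Per kb the order in untreated CGR8 was Plaur (5.33 ± 0.2), Hbegf (3.26 ± 0.439), Edn1 (1.86 ± 0.115), Vegfa (1.36 ± 0.21) and Lif (0.73 ± 0.0146), with no overlap between neighbours on that length. With total exon length Hbegf (1.95) and Edn1 (1.86) lay close together. Ptgs2, Csf1, Has2 and Cxcl1 followed between 0.075 and 0.0344 CPM per kb, and their neighbours overlapped. Ptgs2 had 7 to 10 counts per untreated CGR8 library against 11312 to 14452 in NIH/3T3. Edn1 was the exception, with 3.97 ± 0.247 CPM in CGR8 and 3.22 ± 0.271 CPM in NIH/3T3, a log2 difference of 0.30 (SE 0.15) that was not called. Under RLE scaling, library totals alone and DESeq2 Edn1 was called higher in CGR8, by 0.38, 0.36 and 0.38.

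**Figure D1:**
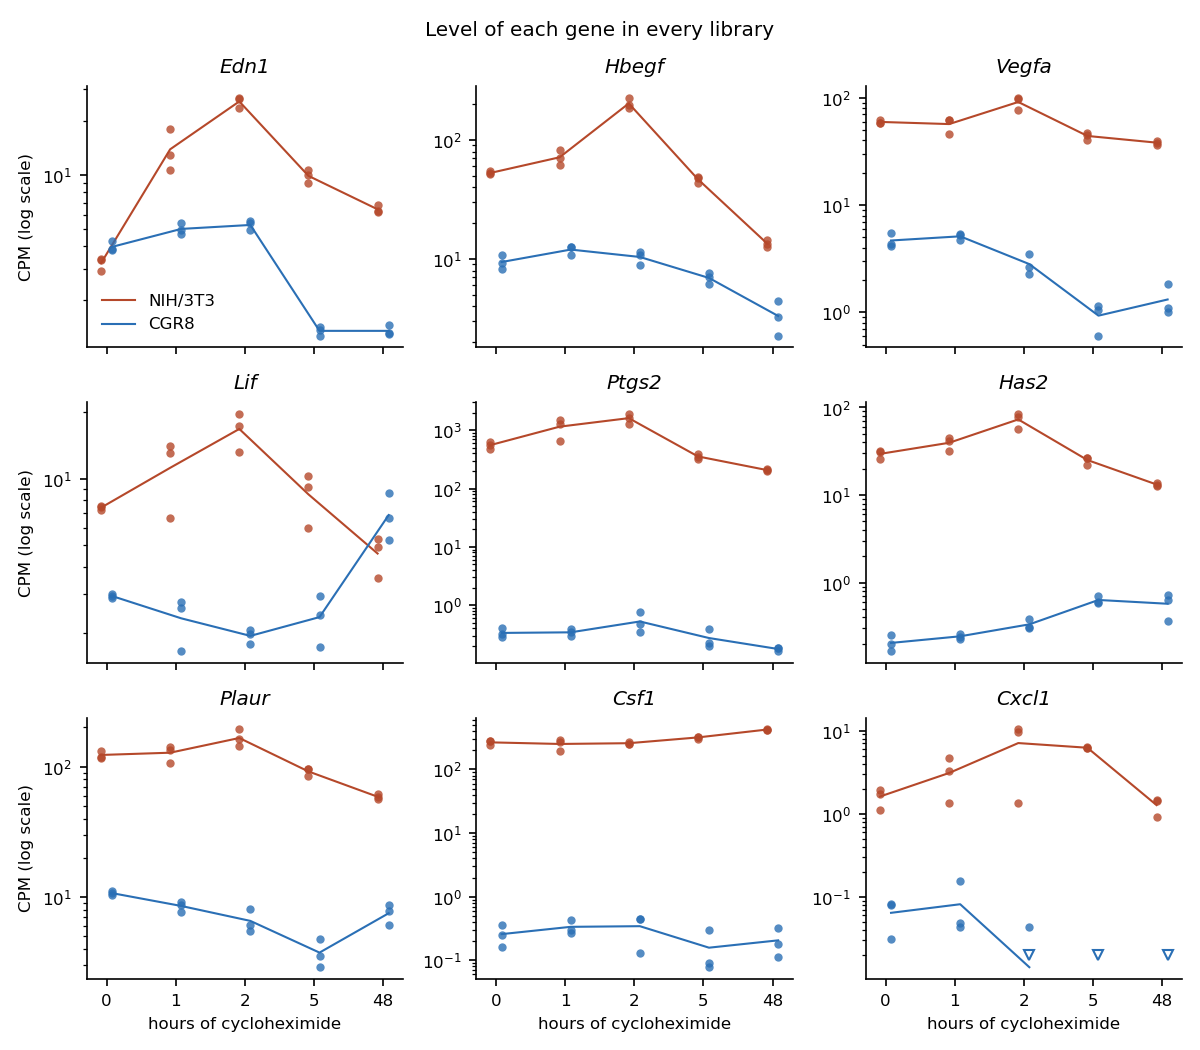
Level of each of the 9 members in every library, as CPM on a log scale, against hours of cycloheximide (positions not to scale), with points for the 3 libraries of a group, lines through the means, NIH/3T3 in red and CGR8 in blue. Open triangles, drawn at an arbitrary height, mark groups with libraries at 0 counts (Cxcl1 in CGR8). In NIH/3T3 8 of the 9 genes had their highest mean at 2 h, and in 7 of them the 2 h libraries lie clear of the 0 h libraries, the exception being Cxcl1 with its single low library at 1.34 CPM.

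In NIH/3T3 8 of the 9 members rose at 2 h, and 7 of them had fallen again by 5 h. All times were compared with the same 0 h libraries. At 1 h Edn1 and Ptgs2 were called higher, 2 of 9 members, where 0.732% of all genes tested were called. At 2 h 8 of 9 were called higher, all but Csf1, where 35.0% of genes were called in either direction, 2250 of them higher. The median log2 change of the members was 0.46 at 1 h and 1.34 at 2 h, against 0.02 and -0.01 over all genes tested. At 5 h 6 members were called, 3 higher (Csf1, Cxcl1, Edn1) and 3 lower (Ptgs2, Plaur, Vegfa), where 51.0% of genes were called. At 48 h 8 were called, 2 higher (Csf1, Edn1) and 6 lower, where 52.3% were called. The members were chosen with these values known, so nothing is read from the counts.

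Edn1 encodes preproendothelin-1, the precursor of a vasoconstrictor peptide, and had the largest log2 change of the members at 1 and 2 h. Its level in replicates A, B and C of NIH/3T3 was 2.91, 3.38 and 3.37 CPM at 0 h, 13.0, 18.1 and 10.6 at 1 h, 23.7, 26.9 and 26.5 at 2 h, 9.99, 10.6 and 9.0 at 5 h, and 6.28, 6.82 and 6.19 at 48 h. The lowest library at each later time lay above all 3 libraries at 0 h. The mean was 4.32 times that at 0 h after 1 h, 7.98 times after 2 h and still 2.00 times after 48 h. The fitted log2 changes were 2.13, 3.02, 1.65 and 0.96 at 1, 2, 5 and 48 h, each with SE 0.17. The antisense gene Gm47118 overlaps Edn1 and had 0 to 2 counts per NIH/3T3 library.

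Hbegf encodes a membrane-anchored precursor from which a soluble ligand of the epidermal growth factor receptor is shed. Its NIH/3T3 libraries read 54.9, 52.5 and 51.4 CPM at 0 h, 71.2, 81.7 and 61.9 at 1 h, 226, 187 and 197 at 2 h, 48.8, 43.6 and 47.8 at 5 h, and 12.7, 13.3 and 14.4 at 48 h. All libraries at 1 and 2 h lay above those at 0 h, and all at 5 and 48 h lay below. The mean at 2 h was 3.84 times that at 0 h and the mean at 48 h 0.255 times, a log2 change of 1.98 (SE 0.11) and then -2.0 (SE 0.11). The 1 h change of 0.46 (SE 0.10) was not called.

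Vegfa, the ligand of the endothelial receptors Flt1 and Kdr, moved less. Its NIH/3T3 libraries held 61.5, 58.5 and 58.8 CPM at 0 h, 61.9, 62.6 and 46.3 at 1 h, 77.0, 99.8 and 97.5 at 2 h, 46.8, 40.6 and 44.9 at 5 h, and 39.9, 38.2 and 36.4 at 48 h. The 1 h libraries overlapped those at 0 h, the 2 h libraries stood above them, and the 5 and 48 h libraries stood below. The log2 changes were 0.65 (2 h), -0.40 (5 h) and -0.67 (48 h), each with SE 0.11.

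Lif encodes a cytokine of the interleukin-6 family, the factor after which the medium supplement of the CGR8 cells is named. In NIH/3T3 it read 7.46, 7.5 and 7.2 CPM at 0 h, 13.1, 14.0 and 6.64 at 1 h, 13.2, 17.3 and 19.7 at 2 h, 9.2, 6.0 and 10.3 at 5 h, and 3.53, 5.31 and 4.91 at 48 h. Replicate C at 1 h was below every 0 h library and the other 1 h libraries were above. The log2 change at 1 h was 0.64 (SE 0.24) and was not called, and without that library it was 0.88 and called. At 2 h the change was 1.22 (SE 0.24) and at 48 h -0.72 (SE 0.26). The 48 h call was lost in 4 of the 6 fits that left out 1 library of either group, with changes between -0.75 and -0.55, and under library totals alone (-0.65).

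Csf1 and Cxcl1 kept other times. Csf1 encodes macrophage colony-stimulating factor, and its NIH/3T3 level was 275, 244 and 278 CPM at 0 h, 270, 291 and 193 at 1 h, 269, 248 and 255 at 2 h, 324, 305 and 326 at 5 h, and 423, 422 and 424 at 48 h. Its 2 h libraries overlapped those at 0 h, with a log2 change of -0.01 (SE 0.11), and all 48 h libraries lay above all others. The change was 0.29 (SE 0.11) at 5 h, a call lost in 5 of the 6 fits without 1 library and under library totals alone, and 0.64 (SE 0.11) at 48 h. Cxcl1, a chemokine that draws neutrophils, was the lowest member in NIH/3T3 per kb of the longest transcript at 0 h. It had 1.95, 1.11 and 1.75 CPM at 0 h, 3.23, 4.68 and 1.36 at 1 h, 1.34, 9.58 and 10.3 at 2 h, 6.40, 6.12 and 6.12 at 5 h, and 0.902, 1.47 and 1.44 at 48 h. The 2 h replicate A, with 25 counts against 239 and 242 in the others, sat within the range of the 0 h libraries. The 2 h change was 2.19 (SE 0.51) with that library and 2.67 without it. The 5 h libraries were close together and clear of 0 h, with a change of 1.99 (SE 0.51), so that Cxcl1 alone of the 8 members called higher at 2 h was not called lower between 2 and 5 h (-0.21, SE 0.44).

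Plaur encodes the urokinase receptor, which is anchored to the membrane by a glycolipid and focuses plasminogen activation at the cell surface. Its NIH/3T3 level was 117, 119 and 132 CPM at 0 h, 135, 141 and 106 at 1 h, 143, 162 and 193 at 2 h, 95.3, 85.1 and 95.3 at 5 h, and 58.9, 61.4 and 56.3 at 48 h. The 2 h libraries stood above all 0 h libraries by little, and the 48 h libraries, at most 61.4 CPM, were the lowest of the course. The log2 change was 0.47 at 2 h, the smallest of the 8 called, -0.38 at 5 h and -1.09 at 48 h (SE 0.11 each).

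The remaining members are enzymes. Ptgs2 makes the prostaglandin precursor PGH2 and was the highest member per kb in NIH/3T3 up to 2 h. At 5 h its libraries overlapped those of Csf1 (72.8 to 87.6 and 73.0 to 78.1 CPM per kb), and at 48 h Csf1 was higher (101 and 46.5). Its NIH/3T3 level was 567, 619 and 482 CPM at 0 h, 1280, 1490 and 664 at 1 h, 1260, 1920 and 1640 at 2 h, 352, 324 and 390 at 5 h, and 198, 208 and 215 at 48 h. Replicate C at 1 h was only just above the highest 0 h library, and the 5 and 48 h libraries were all below the lowest. The log2 changes at the 4 times were 1.06, 1.56, -0.61 and -1.46, each with SE 0.21. The 1 h call was lost under library totals alone and in 4 of the 6 fits without 1 library (0.82 to 1.08), and the 5 h call was lost in 4 of 6 (-0.60 to -0.52). Has2, which spins hyaluronan through the plasma membrane, read 30.6, 32.1 and 25.9 CPM at 0 h, 41.8, 45.0 and 31.8 at 1 h, 56.7, 84.9 and 77.6 at 2 h, 26.5, 22 and 26.8 at 5 h, and 13.0, 13.8 and 12.8 at 48 h. The 2 h libraries were clear of 0 h (1.34, SE 0.15), those at 5 h overlapped it (-0.20, SE 0.15, not called), and those at 48 h were below it (-1.19, SE 0.15). The antisense gene Has2os overlaps Has2 and had 2 to 12 counts per NIH/3T3 library.

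Of the times sampled in NIH/3T3, 2 h had the highest mean for 8 members, so their peak may lie anywhere between 1 and 5 h. From 2 to 5 h 7 of 9 members were called lower in NIH/3T3, where 23.1% of genes were called, and the others were Csf1 and Cxcl1. The log2 change over these hours was -2.18 (SE 0.22) for Ptgs2, -2.12 (SE 0.11) for Hbegf, -1.54 (SE 0.15) for Has2, -1.38 (SE 0.15) for Edn1, -1.05 (SE 0.11) for Vegfa, -0.98 (SE 0.24) for Lif and -0.85 (SE 0.11) for Plaur. From 5 to 48 h all 9 were called, Csf1 higher and 8 lower, where 65.6% of genes were called. Cxcl1 had the largest of these changes, -2.37 (SE 0.54), and Vegfa the smallest, -0.27 (SE 0.11), a call lost with a replicate block, under library totals alone, without the count filter and in 5 of the 6 fits without 1 library. At 48 h Hbegf, Ptgs2, Has2, Plaur, Lif and Vegfa were thus below their 0 h level, and Edn1 and Csf1 above it.

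**Figure D2:**
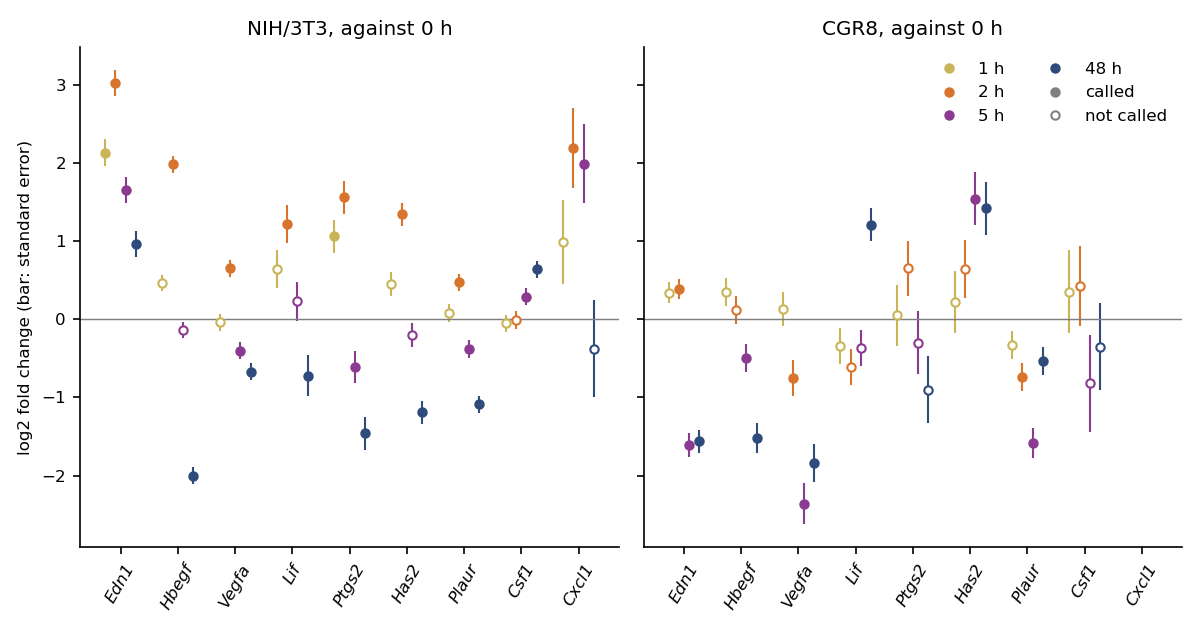
Fitted log2 fold change from 0 h (vertical axis) of each member at 1, 2, 5 and 48 h, in NIH/3T3 on the left and CGR8 on the right, with bars of 1 standard error and filled points where the gene was called. In NIH/3T3 the 2 h points of 8 members lie above 0 and those of Csf1 at -0.01, whereas in CGR8 the 5 h points of Edn1, Vegfa and Plaur lie at -1.61, -2.36 and -1.58. Cxcl1 has no point in CGR8, where its counts were too low to be tested.

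In the embryonic stem cells the calls were fewer at 2 h and mostly downward at 5 h. Of the 8 members tested in CGR8, 0 were called at 1 h, where 0.270% of genes were called. At 2 h 3 were called, Edn1 higher and Plaur and Vegfa lower, where 19.9% of genes were called. At 5 h 5 were called, Has2 higher and Plaur, Edn1, Vegfa and Hbegf lower, where 52.1% were called. At 48 h 6 were called, Lif and Has2 higher and the same 4 lower, where 27.8% were called. The median log2 change of the members was 0.17, 0.25, -0.66 and -0.72 at the 4 times, and that of all genes tested lay between -0.01 and 0.01. From 2 to 5 h 4 members were called lower (19.1% of genes called), and from 5 to 48 h 3 were called, Plaur and Lif higher and Hbegf lower (57.5% of genes called).

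Edn1 in CGR8 read 3.87, 3.79 and 4.26 CPM at 0 h, 4.70, 5.40 and 4.91 at 1 h, 5.37, 5.50 and 4.92 at 2 h, 1.41, 1.27 and 1.37 at 5 h, and 1.31, 1.45 and 1.29 at 48 h. The libraries at 1 and 2 h were above 0 h by little and those at 5 and 48 h far below. The 2 h change of 0.39 (SE 0.13) was called only in the edgeR fits with TMM or RLE scaling on all 15 libraries. It was lost under library totals alone, DESeq2, no count filter, the replicate block and each of the 6 fits without 1 library. The changes at 5 and 48 h were -1.61 and -1.56 (SE 0.15 each).

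Vegfa went from 5.51, 4.19 and 4.34 CPM at 0 h to 5.38, 5.31 and 4.68 at 1 h, 2.28, 2.66 and 3.52 at 2 h, 1.14, 0.608 and 1.05 at 5 h, and 1.86, 1.00 and 1.09 at 48 h. From 2 h on no library reached the 0 h range. The log2 change was -0.75 (SE 0.23) at 2 h, -2.36 (SE 0.26) at 5 h and -1.84 (SE 0.24) at 48 h, and the 2 h call was lost in 4 of the 6 fits without 1 library. At 5 h these values rest on 12 to 27 counts per library.

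Plaur read 10.8, 10.3 and 11.1 CPM at 0 h, 7.70, 8.72 and 9.17 at 1 h, 8.08, 6.12 and 5.45 at 2 h, 4.78, 3.55 and 2.89 at 5 h, and 8.61, 7.80 and 6.09 at 48 h. It was lowest at 5 h and part of the loss was made up by 48 h, when all libraries were above those at 5 h and below those at 0 h. The changes from 0 h were -0.74 (SE 0.18), -1.58 (SE 0.19) and -0.53 (SE 0.18) at 2, 5 and 48 h. The 2 h call was lost without 2 h replicate C (-0.61), and the 48 h call in 5 of the 6 fits without 1 library. Hbegf read 9.26, 10.8 and 8.27 CPM at 0 h, 12.6, 12.5 and 10.9 at 1 h, 10.9, 8.92 and 11.5 at 2 h, 7.64, 6.13 and 7.02 at 5 h, and 4.41, 2.27 and 3.27 at 48 h. Its 48 h libraries were the lowest in the line (-1.52, SE 0.19), and its smaller 5 h change of -0.50 (SE 0.18) lost its call in 4 of the 6 fits without 1 library.

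Lif and Has2 went the other way late. Lif in CGR8 read 2.99, 2.87 and 2.95 CPM at 0 h, 2.76, 2.59 and 1.65 at 1 h, 1.98, 2.07 and 1.78 at 2 h, 1.73, 2.94 and 2.42 at 5 h, and 8.61, 6.62 and 5.28 at 48 h. All 48 h libraries were above all earlier ones, with a log2 change of 1.21 (SE 0.21), or 2.33 times the 0 h mean. Has2 was near the limit of detection, with 4 to 8 counts per library at 0 h, 12 to 18 at 5 h and 10 to 18 at 48 h. Its level was 0.252, 0.2 and 0.164 CPM at 0 h, 0.591, 0.608 and 0.702 at 5 h, and 0.365, 0.632 and 0.726 at 48 h, so that both later groups lay above the first. The log2 change was 1.54 (SE 0.34) at 5 h and 1.42 (SE 0.34) at 48 h.

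Ptgs2, Csf1 and Cxcl1 were close to absent in CGR8. Ptgs2 had 4 to 22 counts per library over the 5 times and Csf1 2 to 13, and neither was called at any time against 0 h. The SE of their log2 changes was 0.35 to 0.43 for Ptgs2 and 0.51 to 0.62 for Csf1, so that changes of the size of Vegfa at 2 h were not detectable at this depth. Cxcl1 had, over the 3 libraries of a group, 5 counts before treatment, then 6 after 1 h, 1 after 2 h and 0 after 5 and 48 h. The 0 counts allow up to 0.0413 CPM at 5 h and 0.0381 CPM at 48 h (3 counts over the group, counting error only), which is near the 0 h mean of 0.0644 CPM, and no fold is given.

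The difference between the lines in the change from 0 h was taken as CGR8 minus NIH/3T3 in 1 fit of all 30 libraries. At 1 h 1 of 9 members, Edn1, was called, where 0.160% of genes were called. At 2 h 5 were called, all with a smaller or more negative change in CGR8 (Edn1, Hbegf, Lif, Vegfa, Plaur), where 2.02% of genes were called. At 5 h 4 were called, Edn1, Vegfa and Plaur lower and Has2 higher, where 13.3% were called, and at 48 h 4 were called, Edn1 and Vegfa lower and Lif and Has2 higher, where 21.9% were called. The members were chosen with these levels known, so the counts are a description.

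For Edn1 the difference at 1, 2, 5 and 48 h was -1.77 (SE 0.21), -2.58 (SE 0.20), -3.16 (SE 0.23) and -2.54 (SE 0.23). Edn1 started from like levels in the lines, 3.22 and 3.97 CPM, and at 2 h stood at 25.7 ± 1.76 CPM in NIH/3T3 and 5.26 ± 0.303 CPM in CGR8. Hbegf differed at 2 h, by -1.80 (SE 0.20), and its difference at 48 h, 0.47 (SE 0.22), was not called, and Hbegf was called lower at 48 h in both lines. Lif turned its sign, from -1.78 (SE 0.36) at 2 h to 1.91 (SE 0.35) at 48 h. By 48 h Lif stood at 6.84 ± 1.67 CPM in CGR8 and 4.58 ± 0.933 CPM in NIH/3T3, with libraries that just overlapped, after 2.94 and 7.39 CPM at 0 h. Has2 differed by 1.82 and 2.58 (SE 0.38 each) at 5 and 48 h, from a CGR8 level under 1 CPM throughout. Ptgs2 differed by -0.86 (SE 0.54) at 2 h and was not called at any time.

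Scaling and single libraries matter at 5 h, where the median log2 difference over all genes was 0.13, and lay 0.19 lower under library totals alone. Among all genes called there 61.6% were higher in CGR8 under TMM scaling, 45.9% under RLE and 31.5% under library totals. Under TMM scaling the share was 28.5% without CGR8 5 h replicate A and 30.1% without replicate B. At 2 h those shares were 42.8%, 31.8% and 38.9%. The Edn1, Vegfa, Plaur and Has2 differences at 5 h kept their sign and call under each.

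**Figure D3:**
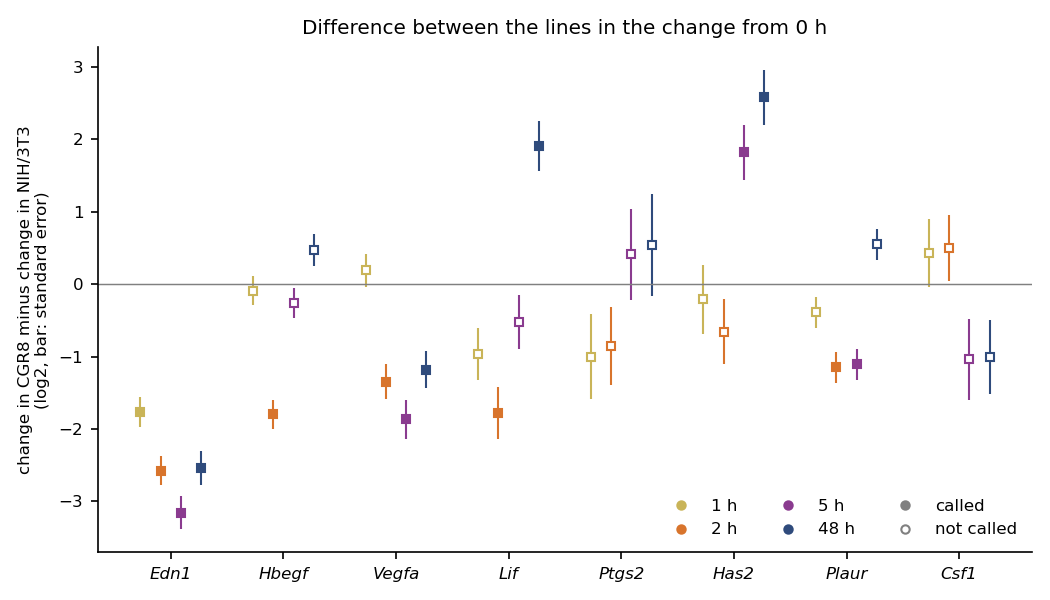
Change from 0 h in CGR8 minus change from 0 h in NIH/3T3 (log2, vertical axis) for 8 members at 1, 2, 5 and 48 h, with bars of 1 standard error and filled squares where the difference was called. Cxcl1 is left out because it had at most 6 counts over the 3 libraries of any CGR8 group. Edn1 lies between -1.77 and -3.16 at every time, and Lif and Has2 reach 1.91 and 2.58 at 48 h.

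Within a line the members' courses were compared over the 15 libraries, which share time points, depth and scaling, so correlations are given as description only. In NIH/3T3 the 36 pairs of members had a median Pearson r of log2 CPM of 0.66, from -0.79 to 0.97. Csf1 had a negative r with each other member, strongest with Plaur (-0.79), Hbegf (-0.76) and Has2 (-0.74). It was weak with Edn1 (-0.25) and Cxcl1 (-0.20). In CGR8 10 pairs of members with enough counts had a median of 0.37, from -0.79 to 0.86. Of 9278 genes searched in NIH/3T3, Edn1 was closest to Klf6 (r 0.98) and Klf10 (0.97), Hbegf to Rcan1 (0.98), and Vegfa to Nr4a1 (0.97) and Pxdc1 (0.96). Lif was closest to Ereg and Kctd9 (0.94 each), Ptgs2 to Rgs16 (0.98) and Sgk1 (0.97), Has2 to Dusp10 (0.98) and Ing5 (0.97), and Plaur to Pvr (0.98) and Mcm10 (0.97). Csf1 was closest to Inafm2 (0.98) and Bbs1 (0.97). In CGR8 Hbegf was closest to Mettl27 and Me1 (0.94 each) and Plaur to Triobp and Rbck1 (0.96 each).

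Other secreted and surface genes of the serum response, a list of 25 of which 21 were tested in NIH/3T3, were counted in the same way. This list and those below were chosen with earlier results of these data known. Most genes named from them are those with the largest changes, so their p-values are description too. At 1 h 3 were higher and 0 lower, at 2 h 16 and 0, at 5 h 16 and 3, and at 48 h 8 and 8, where 0.732%, 35.0%, 51.0% and 52.3% of all genes were called. Their median log2 change was 0.79 at 2 h and 0.86 at 5 h, against -0.01 over all genes, whereas the members' median at 5 h was -0.14. Ccn1, a matricellular protein, rose from 181 ± 21.1 CPM to 892 ± 106 at 2 h (2.34, SE 0.18, edgeR adjusted p 1.38e-07). Tnc, the matrix protein tenascin-C, rose by 1.79 at 5 h (SE 0.15, edgeR adjusted p 2.36e-07) from 121 ± 3.8 to 408 ± 35.7 CPM. In CGR8 13 were tested, and 1 was called higher and 1 lower at 1 h, where 0.270% of all genes were called. At 2 h 2 were called higher and 4 lower, at 5 h 1 and 7, and at 48 h 0 and 7. Of all genes 19.9%, 52.1% and 27.8% were called at those later times. Ccn2, connective tissue growth factor, was called higher there at 1 h (0.79). Its change was 1.18 at 2 h (SE 0.14, edgeR adjusted p 8.79e-05) and -1.03 at 48 h (SE 0.15, edgeR adjusted p 8.95e-05).

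**Figure D4:**
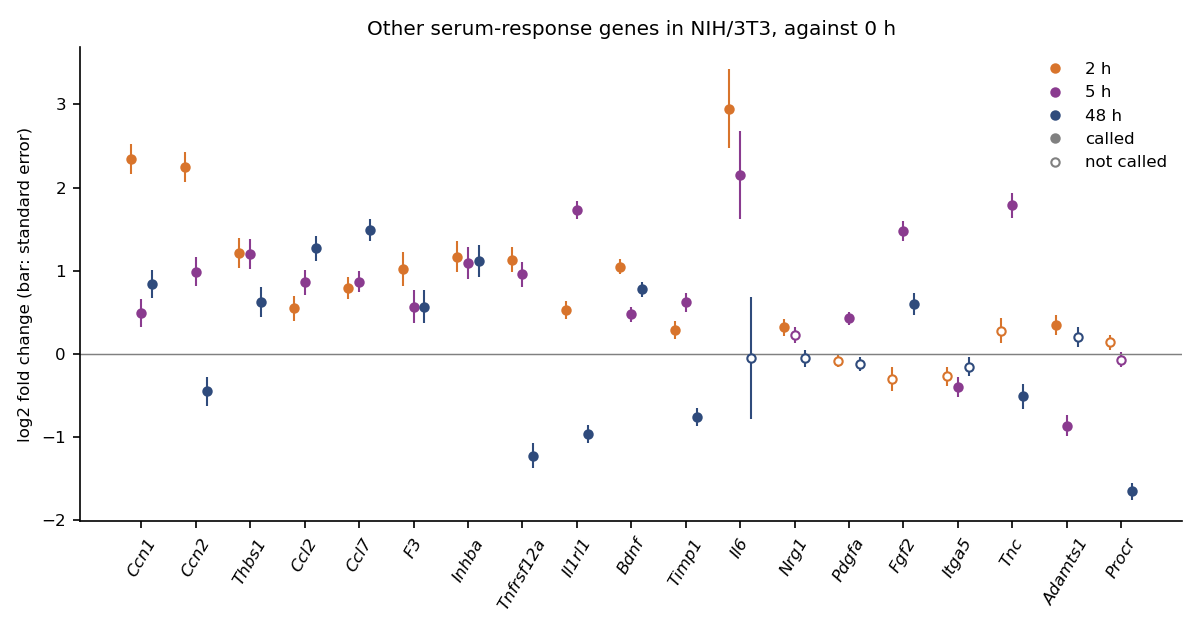
Log2 fold change from 0 h (vertical axis) in NIH/3T3 of 19 of the 21 tested genes of the list of other serum-response genes, at 2, 5 and 48 h, with bars of 1 standard error and filled points where the gene was called. At 2 h 14 of the genes drawn are filled above 0 and 0 below, and Ccn1 lies at 2.34.

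The list of partners and receptors of the members held 43 genes, of which 28 were tested in each line. In NIH/3T3 10 were called higher and 8 lower at 2 h, 11 and 6 at 5 h, and 9 and 8 at 48 h, where 35.0%, 51.0% and 52.3% of all genes were called. Their median log2 changes were -0.08, 0.18 and 0.00. The 8 lower at 2 h became 5 without 0 h replicate B and 4 without 2 h replicate C. Ptger4, a receptor for prostaglandin E2, was the only one called at 1 h (0.88, SE 0.14, edgeR adjusted p 0.00327). Around Has2, Ugdh, which makes the sugar precursor of hyaluronan, rose from 126 ± 6.23 to 391 ± 9.50 CPM at 5 h (1.66, SE 0.11), while Cemip2, a cell-surface hyaluronan-degrading protein, fell from 27.6 ± 2.46 to 8.33 ± 0.400 CPM (-1.69, SE 0.18). Nrp2, a co-receptor for vascular endothelial growth factors, rose by 1.15 (SE 0.12) in NIH/3T3 and fell in CGR8 (-1.44, SE 0.11), both at 48 h. Some direct partners are named after their values were seen. Plau, the ligand of Plaur, and Cd44, the hyaluronan receptor, were called higher at 2 h in NIH/3T3 by 0.49 (SE 0.12) and 0.34 (SE 0.08). Flt1 was called lower (-0.35, SE 0.13), and Egfr (-0.01, SE 0.14) and Il6st (-0.08, SE 0.09) were not called. In CGR8 7 of 28 were called higher (4 without 0 h replicate A) and 12 lower at 5 h, where 52.1% of all genes were called, with Ptgis, prostacyclin synthase, at 0.84 (SE 0.14) and Lrp1, an endocytic receptor, at -1.35 (SE 0.19).

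Relatives of the members in the same protein families, 30 genes of which 15 were tested in NIH/3T3 and 12 in CGR8, were called in both directions. In NIH/3T3 4 were higher and 2 lower at 2 h, 3 and 5 at 5 h, and 3 and 6 at 48 h, where 35.0%, 51.0% and 52.3% of all genes were called. Ereg, an epidermal growth factor relative like Hbegf, rose from 56.4 ± 3.31 to 145 ± 49.8 CPM at 2 h (1.39, SE 0.21, edgeR adjusted p 0.000173). Cxcl5, a chemokine near Cxcl1 in family, rose by 1.53 at 5 h (SE 0.41), and Clcf1, a cytokine of the Lif family, fell from 66.7 ± 8.05 to 30.2 ± 2.35 CPM (-1.11, SE 0.17). Il34, the other ligand of the Csf1 receptor, fell at 48 h, with a log2 change of -1.67 (SE 0.09) in NIH/3T3 and -1.38 (SE 0.12) in CGR8, whereas Csf1 rose in NIH/3T3. In CGR8 0 were called higher and 4 lower at 5 h, among them Osm (-1.47, SE 0.20), and at 48 h 2 were higher and 4 lower, where 52.1% and 27.8% of all genes were called. Has3, a hyaluronan synthase like Has2, was among the higher (1.27, SE 0.25).

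Of the factors of mRNA decay, which include proteins that bind AU-rich sites such as those shown above, 22 of 22 were tested in each line. In NIH/3T3 1 was called higher at 1 h, 3 higher and 4 lower at 2 h, 3 and 10 at 5 h, and 4 and 2 at 48 h, where 0.732%, 35.0%, 51.0% and 52.3% of all genes were called. In CGR8 1 was higher and 6 lower at 2 h, 2 and 11 at 5 h, and 5 and 1 at 48 h, where 19.9%, 52.1% and 27.8% were called. The 3 higher in NIH/3T3 at 2 h became 7 without 2 h replicate A, and the 5 higher in CGR8 at 48 h became 1 without 48 h replicate C. Zfp36, tristetraprolin, which is itself an early-response gene, went from 14.0 ± 0.948 CPM to 32.0 ± 7.07 at 1 h, 37.8 ± 6.23 at 2 h and 5.39 ± 0.733 at 5 h in NIH/3T3, with log2 changes of 1.21, 1.46 and -1.35. Zc3h12a, the endonuclease regnase-1, fell in CGR8 from 9.24 ± 1.93 to 2.09 ± 0.503 CPM at 2 h (-2.15, SE 0.22, edgeR adjusted p 2.74e-05). The part of these factors in the members' levels was not tested.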

How the data were processed

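The values are raw gene counts, which the authors deposited as 1 table of 30 libraries (10 groups of 3), all used. Per the labels' protocols RNA was isolated with a column kit, and the library kit was Illumina's stranded mRNA ligation kit. Per the submitters' processing notes STAR, DESeq2 and the GRCm39 build were used. The counting tool, its use of strand and the annotation release are not given in the sources used here. The members and the gene lists were chosen with earlier results of these data known. Symbols were matched by Ensembl identifier with the version ignored, which gave a symbol to 51880 identifiers (90.7%).

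The analysis used edgeR 4.0.16 in R 4.3.3. Genes were kept by filterByExpr (minimum count 10, minimum total 15), libraries were scaled by TMM factors, and 1 model per line with a coefficient per time was tested by the quasi-likelihood F test. Differences between the lines were tested in 1 model of all 30 libraries. The SE of a log2 change was derived from this test, as the absolute change divided by the square root of F. P-values were adjusted by the Benjamini-Hochberg method over all genes tested, with 0.05 as the threshold for a call. CPM used the TMM-scaled totals, and correlations used log2 CPM with a prior count of 2. With totals of 18.2 to 30.5 M counts, a gene with 10 counts is imprecise, and intervals and floors cover counting error only. Named genes of each list were, per comparison with 0 h, the called gene with the largest rise and the called gene with the largest fall, where the higher group averaged 5 CPM or more and the libraries of the groups did not overlap. For each member the 2 genes with the highest Pearson r were named. A few genes that these rules pick are not reported here, though list counts include them. Sequences came from a RefSeq promoter table (GRCm38.p6) and GENCODE M21 transcripts (GRCm38), another build than the authors'. The alternatives were RLE factors, library totals alone, DESeq2 1.42.0, no count filter, the replicate letter as a block, total exon length and each library left out in turn.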

Additional observations from a re-analysis of the deposited data

Results flagged for a closer look

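These results were picked out because the change from 0 h differed between CGR8 and NIH/3T3 in a test of the difference itself, on members chosen with these data known. Differences are given as log2, CGR8 minus NIH/3T3, and line and medium cannot be told apart. Edn1 differed at all 4 times, by -1.77, -2.58, -3.16 and -2.54 after 1, 2, 5 and 48 h. Vegfa differed by -1.35 at 2 h, -1.87 at 5 h and -1.18 at 48 h. Plaur differed by -1.15 at 2 h and -1.11 at 5 h, and Hbegf by -1.80 at 2 h. Lif differed by -1.78 at 2 h and by 1.91 at 48 h. Has2 differed by 1.82 at 5 h and 2.58 at 48 h, on CGR8 libraries of 4 to 18 counts. With 3 libraries a group, single libraries were not tested as outliers.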

How the results depend on the processing

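No member's log2 change or difference turned its sign under the alternatives run where it was called. The per-kb order of Hbegf and Vegfa in NIH/3T3 turned with total exon length (10.9 and 13.9), and the share of genes called higher in the 5 h line difference crossed 50% under scaling and with 1 library left out, as given above. Of the member results, DESeq2 moved 5 past the threshold and took 1 below it, RLE factors 2 and 0, library totals alone 2 and 5, and no count filter 7 and 2. Leaving out 1 library moved 7 and 45 of 1098. The comparisons at 1 h are the least settled. In NIH/3T3 at 1 h the 2 members called became 1 under library totals alone and 6 without the filter, and 1 to 5 with 1 library left out, the 5 without 1 h replicate C. All genes called there (102) became 265 with DESeq2, 272 without the filter, and 52 to 475 with 1 library left out, the 475 also without 1 h replicate C and the low counts without 0 h replicate A (52) or C (53). In CGR8 at 1 h 43 genes became 132 with DESeq2, 202 without the filter and 15 to 26 with 1 library left out. The difference between the lines at 1 h went from 28 genes to 44 without the filter. With 1 library left out, genes called ranged from 3050 to 5599 in NIH/3T3 at 2 h (main 4878), from 2064 to 3477 from 2 to 5 h (main 3220), from 1062 to 3924 in CGR8 at 2 h (main 3174) and from 1738 to 3709 in CGR8 from 2 to 5 h (main 3051). The lowest came without 2 h replicate C, 5 h replicate B, 2 h replicate C and 2 h replicate B. The NIH/3T3 count at 2 h was also low without 0 h replicate A (3078), as was that of CGR8 without 0 h replicates A (1424) or C (1690). The 3 members called in CGR8 at 2 h became 1 to 2. Counts of list genes called moved by over 1.5 times in 28 of 176 settings at 1 h and 51 of 528 at later times, mostly counts under 5. The cause of these shifts was not tested. Same-letter correlations were above 0.1 for all 3 letters in 1 of 10 pairs of groups in NIH/3T3 and 0 of 10 in CGR8. In 0 pairs did each letter correlate best with itself. Libraries that stand apart from their group weigh on these correlations, so a pairing by letter was not seen but is not excluded. With the replicate block the NIH/3T3 calls came to 114 genes after 1 h and 4982 after 2 h, and 2 member calls were lost, Edn1 in CGR8 at 2 h (0.38) and Vegfa in NIH/3T3 from 5 to 48 h (-0.27). Members with few counts in CGR8 (Ptgs2, Csf1, Cxcl1, Has2) are limited by depth.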
